A study of Mus musculus with 8 samples.

Results

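Fatty acid desaturases and elongases are the enzymes that add double bonds to fatty acids and lengthen their chains. The 6 genes Fads1, Fads2, Elovl1, Elovl2, Elovl3 and Elovl5 were taken by name from a table of 19267 mouse genes, and all 6 were present and passed the filter on low counts that 13993 genes passed. The table holds RNA-seq read counts of liver from 8 libraries in 4 groups of 2, with each genotype on each diet. The mice were C57BL/6 males that started a Lieber-DeCarli liquid diet at 6 weeks of age, pair-fed for 21 days. The EtOH diet held 5% (w/v) alcohol, the Control diet isocaloric maltose dextrin in its place, and livers were sampled at 9 weeks. Elf4-/- mice were Elf4fl/fl-Villin-Cre animals, in which Cre driven by the villin promoter deletes the transcription factor gene Elf4 in the intestinal epithelium, not in the liver. Per the study's methods the WT mice carried Cre as well, so Cre was shared by all 4 groups, which are called WT-Control and WT-EtOH, and Elf4-/- Control and Elf4-/- EtOH. The labels describe separate samples but do not say how animals map to libraries, so p-values measure the spread between these samples only.

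Polyunsaturated fatty acids of the diet are built up to arachidonic acid and docosahexaenoic acid in a chain of alternating steps, for which the liver is the main organ. FADS2, the delta-6 desaturase, starts the chain, ELOVL5 lengthens its products, FADS1, the delta-5 desaturase, makes arachidonic and eicosapentaenoic acid, and ELOVL2 carries the longest polyunsaturated chains towards docosahexaenoic acid. ELOVL1 and ELOVL3 lengthen saturated and monounsaturated chains; ELOVL1 supplies very long acyl chains for sphingolipids, and ELOVL3 is known from brown fat and skin and, in mouse liver, as a gene with higher levels in males and a daily rhythm. SREBP-1c, the lipogenic transcription factor encoded by Srebf1, and PPAR-alpha are known regulators of several of these genes.

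In the GRCm38 assembly, Fads1 lies on chromosome 19 from 10182888 to 10196877 on the plus strand. Fads2 lies near it on the minus strand, from 10062765 to 10101746, and the third gene of this cluster, Fads3, from 10041569 to 10060110. Elovl3 is on the same chromosome, from 46131897 to 46135694. Elovl1 is on chromosome 4 from 118428093 to 118432953, Elovl2 on chromosome 13 from 41182381 to 41220405 and Elovl5 on chromosome 9 from 77917364 to 77984519. Exons of Elovl1 overlap those of Cdc20 on the opposite strand, and exons of Elovl3 overlap those of Pitx3, so reads from these pairs cannot be told apart where the counting ignored strand. Cdc20 had 2 to 21 counts a library beside 168 to 254 for Elovl1, and Pitx3 had 0 to 12 beside 93 to 400 for Elovl3.

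Elovl2 and Elovl5, whose levels varied together over the libraries, are shown with the stretch upstream of their RefSeq start sites. Windows of 250 bases were matched for 4 of the 6 genes (Fads2, Elovl1, Elovl2 and Elovl5), and 4 motifs were searched on both strands. These were the E-box CACGTG, present in 6.02% of 32851 windows of that length, CCAAT (33.8%), the GC box GGGCGG (32.7%) and the nuclear receptor hexamer AGGTCA (14.0%). The sequences are RefSeq sequences of GRCm38.p6, printed 5′ to 3′ on the strand of the gene, with matches to these motifs or their reverse complements in capitals. Bases that the GENCODE annotation places in an exon of the gene were dropped, which left 249 bases of chr9:77917115-77917363 for Elovl5 and 248 bases of chr13:41220406-41220653 for Elovl2.
Elovl5: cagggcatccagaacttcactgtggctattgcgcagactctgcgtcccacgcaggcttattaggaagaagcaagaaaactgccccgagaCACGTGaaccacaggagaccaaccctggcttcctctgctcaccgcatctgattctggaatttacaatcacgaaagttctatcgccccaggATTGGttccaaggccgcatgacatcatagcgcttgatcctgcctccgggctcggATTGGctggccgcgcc
Elovl2: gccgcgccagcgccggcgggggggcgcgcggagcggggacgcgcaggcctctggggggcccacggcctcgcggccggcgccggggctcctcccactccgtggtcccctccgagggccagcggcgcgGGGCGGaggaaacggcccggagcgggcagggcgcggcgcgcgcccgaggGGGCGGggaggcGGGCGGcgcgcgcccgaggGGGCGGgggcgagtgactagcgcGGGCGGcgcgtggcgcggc
The Elovl5 window held 1 E-box, from 161 to 156 bases before the start site, and a pair of reversed CCAAT boxes from 71 to 67 and from 17 to 13 bases before it. The printed Elovl2 window held 5 GC boxes, the first from 124 to 119 bases before its start site, and neither an E-box nor a CCAAT box. Elovl2 has a second RefSeq start, at 41220162, whose window held none of the 4 motifs. It is not printed because 51 of its bases lie in an exon of the gene. A match is a description of the letters in the window, not a binding site.

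Library totals ran from 6171051 to 9157362 counts. The mitochondrial genome took 23.4% to 33.7% of the counts in WT-Control, 10.8% to 12.5% in WT-EtOH and 18.3% to 22.1% in the Elf4-/- libraries. The counts of a desaturase or elongase in a library ran from 93 to 6905, so counting error was at most 10.4% of a value. Hepatocyte markers (7 genes, Alb and Ttr among them) summed to between 31302 and 72940 CPM (counts scaled to the same TMM-adjusted library total) in every library. Elf4 itself had 6 to 36 counts a library. Because the deletion is in the gut, its liver level does not check the genotype labels.

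**Figure D1:**
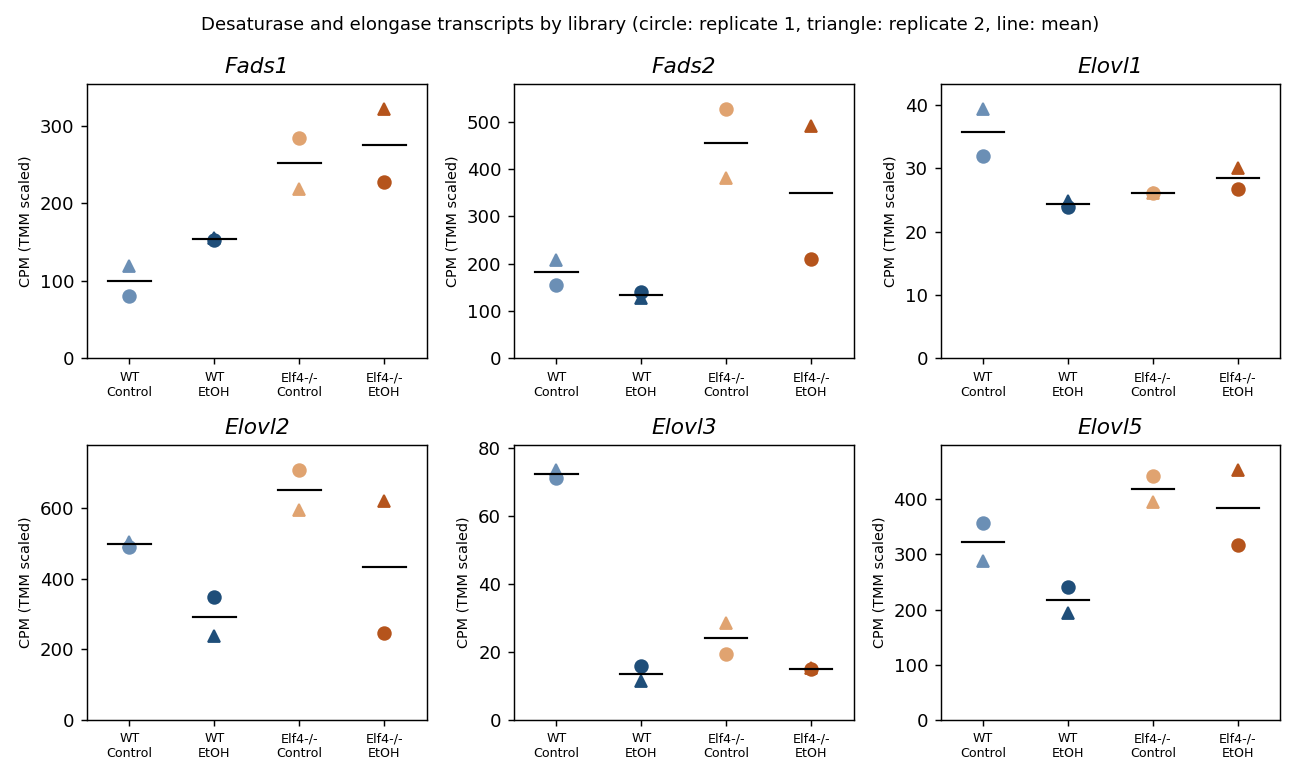
Levels in CPM (TMM scaled) of the 6 genes in each of the 8 libraries, with circles for replicate 1, triangles for replicate 2 and a line at the group mean; each y axis starts at 0. Elovl3 stood at 71.2 and 73.6 CPM in WT-Control and at or below 28.6 CPM in the other groups, and all 4 Elf4-/- libraries lay above all 4 WT libraries for Fads1 and Fads2.

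Compared per length, the elongases and desaturases of the polyunsaturated chain were the higher ones. The mean level over the 8 libraries was 118 RPKM (CPM per kilobase of exon) for Elovl2, 95.4 for Elovl5, 85.1 for Fads2 and 40.5 for Fads1, against 15.8 for Elovl3 and 10.5 for Elovl1. Neighbours in this order overlapped in their ranges over libraries, Fads1 (16.6 to 67.0 RPKM) and Elovl3 (5.73 to 37.3 RPKM) through the WT-Control libraries of Elovl3 alone. The order was the same with the length of the longest transcript and with library totals in place of TMM scaling. Within libraries the order shifted with the groups: Fads2 stood below Elovl5 in all 4 WT libraries and above it in 3 of 4 Elf4-/- libraries. Elovl3 stood above Fads1 in both WT-Control libraries and was the lowest of the 6 genes in all 4 EtOH libraries.

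**Figure D2:**
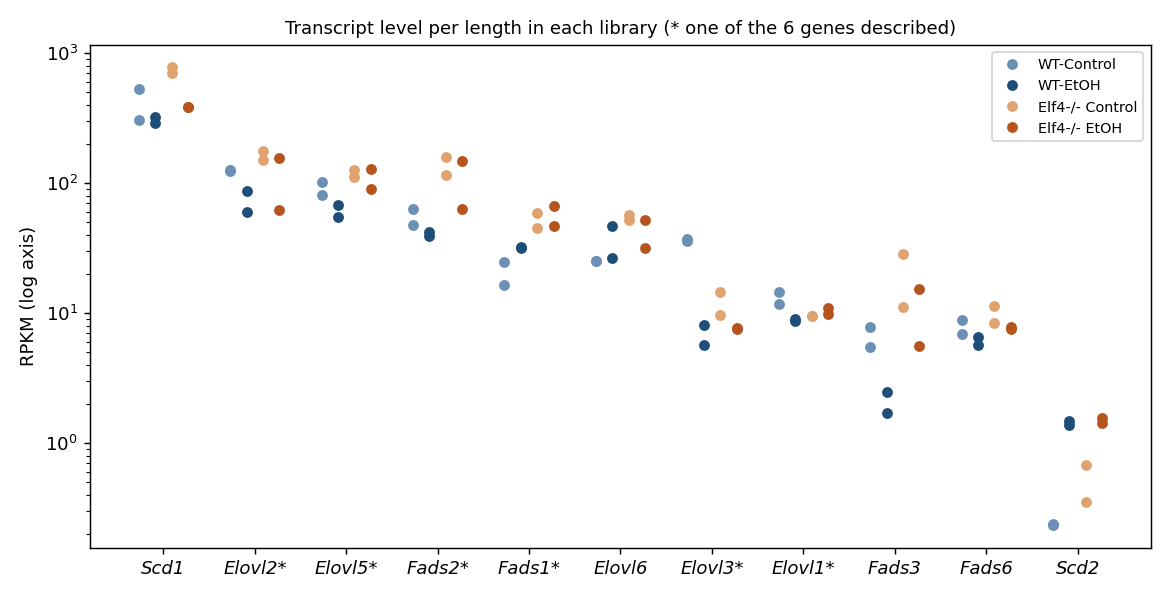
Transcript level per length (RPKM, log axis) of the 6 genes, marked with an asterisk, and of 5 other desaturases and elongases, with 1 point per library coloured by group. Scd1 was above the 6 genes in every library, and Elovl3 had the widest relative range of the 6, from 5.73 to 37.3 RPKM.

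Fads1 and Fads2, the paired front-end desaturases, were higher in the Elf4-/- libraries under both diets. Fads1 stood at 80.0 and 118.7 CPM in the WT-Control libraries and at 152.4 and 155.4 CPM in the WT-EtOH libraries. The Elf4-/- libraries had 284.8 and 218.5 CPM under control diet and 227.3 and 322.3 CPM under EtOH. No Elf4-/- library fell into the WT range. Within WT both EtOH libraries lay above both control libraries, as for 34.1% of all genes, and the change was 0.63 ± 0.27 on the log2 scale (adjusted p = 0.121). Averaged over the diets, Fads1 was 2.13-fold higher in Elf4-/- (log2 fold change 1.09 ± 0.19 SE, edgeR quasi-likelihood adjusted p = 0.0929), 2.53-fold under control diet (log2 1.34 ± 0.27, adjusted p = 0.211) and 1.79-fold under EtOH (0.84 ± 0.27, adjusted p = 0.310). None of these passed the threshold of 0.05. The unadjusted p was 0.0002 for the mean of the diets.

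Fads2 had 155.9 and 208.3 CPM in the WT-Control pair and 139.5 and 128.3 CPM in the WT-EtOH pair, against 527.7 and 381.9 CPM with Elf4-/- on the control diet and 209.3 and 491.7 CPM with Elf4-/- on EtOH. The highest WT library (208.3) and the lowest Elf4-/- library (209.3, Elf4-/- EtOH replicate 1) nearly touched. The fold over WT was 2.56 for the mean of the diets (log2 1.35 ± 0.26, adjusted p = 0.130), 2.50 under control diet (1.32 ± 0.37, adjusted p = 0.397) and 2.62 under EtOH (1.39 ± 0.37, adjusted p = 0.234), and none of these passed the threshold in edgeR. Complete separation of the 4 Elf4-/- from the 4 WT libraries with higher values in Elf4-/- was seen in 1.16% of all genes tested. On the log2 scale Fads2 responded to EtOH by -0.44 ± 0.37 in WT (adjusted p = 0.411) and by -0.38 ± 0.36 in Elf4-/- (adjusted p = 0.592). Neither change passed the test, and the interval of the difference between them ran from -1.08 to 1.21.

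Elovl5 and Elovl2, the polyunsaturated chain elongases, were lower in both WT-EtOH libraries than in both WT-Control libraries, a separation that 32.7% of all genes showed. With library totals in place of TMM scaling Elovl2 stayed separate. Elovl5 then overlapped, with 85.3 and 72.1 RPKM in WT-Control and 77.4 and 65.3 RPKM in WT-EtOH. Elovl5 measured 357.8 and 288.1 CPM in WT on the control diet and 241.2 and 193.3 CPM in WT on EtOH. In Elf4-/- it had 441.5 and 395.3 CPM on the control diet and 316.2 and 453.2 CPM on EtOH, where the diets overlapped. The log2 fold change with EtOH was -0.57 ± 0.25 in WT (adjusted p = 0.135) and -0.12 ± 0.25 in Elf4-/- (adjusted p = 0.822). Against WT, Elovl5 was 1.77-fold higher in Elf4-/- under EtOH (log2 0.82 ± 0.26, adjusted p = 0.297) and 1.30-fold higher under control diet (0.37 ± 0.25, adjusted p = 0.819). The libraries of the genotypes did not overlap under either diet, as for 20.0% of all genes under each.

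Elovl2 gave 490.2 and 503.4 CPM without and 348.1 and 236.3 CPM with EtOH in WT, a log2 fold change of -0.77 ± 0.38 (adjusted p = 0.179). In Elf4-/- the change was -0.59 ± 0.38 (adjusted p = 0.406). The Elf4-/- Control libraries reached 707.7 and 593.7 CPM, above the WT-Control libraries, a separation that 20.0% of all genes showed. The Elf4-/- EtOH libraries split: replicate 1 had 246.9 CPM, inside the WT-EtOH range, and replicate 2 had 618.8 CPM, inside the Elf4-/- Control range. The fold between genotypes under EtOH was therefore 1.48 with a wide interval (log2 0.57, from -0.29 to 1.42, adjusted p = 0.664).

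Elovl3 was the 1 gene of the 6 that passed the edgeR threshold in any comparison, and it fell with EtOH in WT. The WT-Control libraries had 71.2 and 73.6 CPM and the WT-EtOH libraries 15.9 and 11.3, a 5.33-fold decrease (log2 -2.41 ± 0.25, adjusted p = 0.000995). The Elf4-/- mice gave 19.3 and 28.6 CPM on the control diet and 14.8 and 15.1 CPM on EtOH. All 4 EtOH libraries lay below all 4 control libraries, which held for 14.0% of all genes in that direction, and the decrease averaged over the genotypes was 2.91-fold (log2 -1.54 ± 0.17, adjusted p = 0.000644). In Elf4-/- alone the change was -0.67 ± 0.25 (adjusted p = 0.159). Under control diet the gene was 3.04-fold lower in Elf4-/- than in WT (log2 -1.60 ± 0.24, unadjusted p = 5.39e-05, adjusted p = 0.0950), while under EtOH the genotypes differed by 0.14 ± 0.25 with overlapping libraries. The interaction, the difference between the EtOH responses of Elf4-/- and WT, was 1.74 ± 0.34 on the log2 scale and did not pass (adjusted p = 0.220).

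Elovl1, the sphingolipid-chain elongase, was the most even of the 6 genes, with a 1.65-fold range over the libraries. It had 31.9 and 39.4 CPM in the WT-Control pair and 23.9 and 24.8 CPM in the WT-EtOH pair. Elf4-/- livers had 26.0 and 26.1 CPM on the control diet and 26.8 and 30.0 CPM on EtOH. With TMM scaling the WT-Control libraries were the highest pair. With library totals they had 9.82 and 12.7 RPKM and overlapped the other groups, which ran from 9.14 to 11.2 RPKM. The change with EtOH was -0.55 ± 0.19 in WT (adjusted p = 0.0634) and 0.12 ± 0.19 in Elf4-/- (adjusted p = 0.751), and the interaction of 0.67 ± 0.27 did not pass (adjusted p = 0.440).

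**Figure D3:**
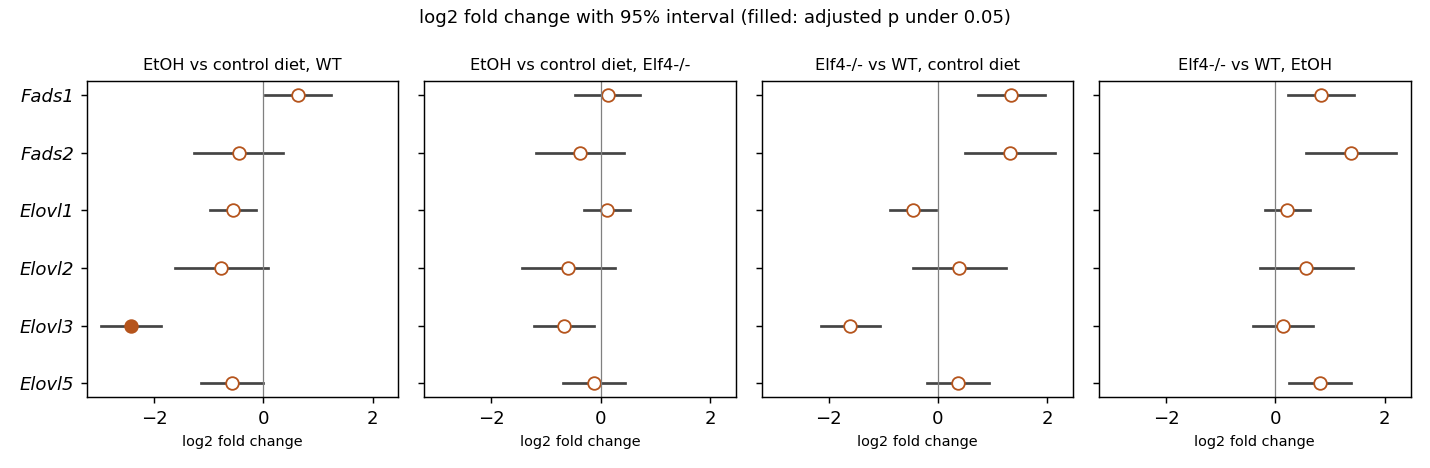
log2 fold change of the 6 genes (points) with 95% intervals (bars) in 4 comparisons; filled points passed an adjusted p of 0.05 in edgeR. The filled point is Elovl3 for EtOH against control diet in WT, at -2.41, and under EtOH all 6 genes lay above 0 for Elf4-/- against WT, as did 50.1% of all genes; with library totals Elovl1 and Elovl3 lay below 0 there.

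Set against all genes tested, 1 of the 6 was called in WT with EtOH, where 21.6% of genes were called (10.8% lower), and 1 with EtOH averaged over genotypes, where 28.0% were called (13.8% lower). At an unadjusted p under 0.05 these were 4 and 2 of 6, beside 36.4% and 40.8% of all genes. DESeq2 called 1 (Elovl3) and 2 (Elovl2 and Elovl3) of 6, beside 20.1% and 25.6%. Neither share stands apart from this background. No gene of the 6 was called in edgeR with EtOH in Elf4-/- (background 2.89%), for Elf4-/- against WT under EtOH (0.143%), under control diet (0.0143%) or averaged over diets (0.136%), or for the interaction (0.0%). The counts at an unadjusted p under 0.05 in these 5 comparisons were 1, 3, 4, 4 and 2 of 6, beside 21.2%, 10.5%, 7.31%, 7.94% and 10.1% of all genes. DESeq2 called 0, 1 (Fads2), 3 (Fads1, Fads2 and Elovl3), 2 (Fads1 and Fads2) and 1 (Elovl3) of the 6, beside 5.64%, 1.27%, 0.5%, 0.843% and 0.7% of all genes. The median log2 fold change of the 6 genes was 0.54 for Elf4-/- against WT averaged over the diets, beside 0.016 over all genes, and -0.56 with EtOH in WT, beside 0.012. The comparisons share libraries (WT-Control enters both the EtOH response of WT and the genotype difference under control diet), so they are not independent of each other.

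The libraries of Elf4-/- EtOH decided several of these values. Between them Fads2 differed 2.35-fold, Elovl2 2.51-fold, Elovl5 1.43-fold and Fads1 1.42-fold, all lower in replicate 1, while the median gene differed 1.31-fold. Elovl1 and Elovl3 differed 1.12-fold and 1.02-fold. Of other lipid genes, Srebf1 was 4.92-fold apart in the same direction (46.7 and 229.7 CPM), Fads3 2.72-fold (21.4 and 58.1 CPM) and Elovl6 1.65-fold (204.0 and 336.8 CPM), whereas Scd1 was 1.01-fold apart (1871 and 1897 CPM). Insig1 and Insig2, which both hold SREBP in the endoplasmic reticulum, differed in opposite directions: Insig1 was 1.92-fold lower (192.7 and 369.2 CPM) and Insig2 6.32-fold higher (339.5 and 53.7 CPM) in replicate 1. Without replicate 1, Fads2 was higher in Elf4-/- under EtOH by 1.88 on the log2 scale (adjusted p = 0.00895), with 1.05% of genes called. Without replicate 2 the same difference was 0.64 (adjusted p = 0.297), Elovl2 moved to -0.25, and Elovl2 and Fads2 fell with EtOH in Elf4-/- by 1.42 and 1.14 on the log2 scale (adjusted p = 0.0132 and 0.0288), with 11.4% of genes called. Without replicate 1 those changes were -0.072 and 0.11 (adjusted p = 0.936 and 0.889). With either library left out, Fads1, Fads2 and Elovl3 passed for Elf4-/- against WT under control diet (0.354% of genes called without replicate 1 and 0.359% without replicate 2) and Fads1 and Fads2 passed averaged over the diets (0.83% and 1.61%). Elovl1, Elovl2 and Elovl3 then passed with EtOH in WT (27.1% and 27.3% of genes), and without replicate 2 Elovl2, Fads2, Elovl5 and Elovl3 passed with EtOH averaged over genotypes (31.8%). The remaining Elf4-/- EtOH library was then assumed to vary like the other groups. With all 8 libraries, Fads1 joined Elovl3 with EtOH in WT when library totals replaced TMM (29.0% of genes). With only the 4 WT libraries in the fit, Elovl2 joined Elovl3 (26.5%). Elovl3 passed between genotypes under control diet with only the 4 control-diet libraries in the fit (0.172%) or with all 8 and no filter (0.0727%), and Fads1 and Fads2 passed averaged over diets with no filter (0.244%).

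**Figure D4:**
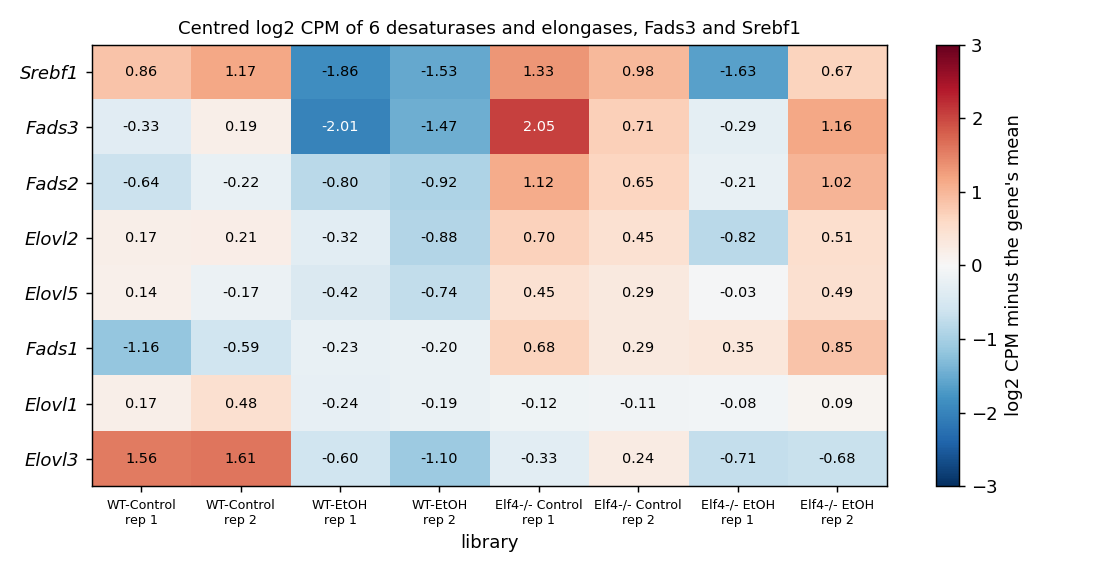
Heat map of log2 CPM minus each gene's mean over the 8 libraries, with the value in each cell, for Srebf1, Fads3 and the 6 genes (rows) in each library (columns). Elf4-/- EtOH replicate 1 had low Srebf1 (-1.63) and Elovl2 (-0.82), near the WT-EtOH libraries, whereas replicate 2 had 0.67 and 0.51.

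Over the 8 libraries, Fads2, Elovl2, Elovl5 and Fads3 varied together, as a description of libraries that share groups and scaling. Pearson's r of log2 CPM was 0.87 between Fads2 and Elovl5, 0.82 between Elovl2 and Elovl5, 0.77 between Fads2 and Elovl2, and 0.93 between Fads2 and Fads3 (n = 8 libraries each). Srebf1 had an r of 0.91 with Elovl2, 0.74 with Elovl5, 0.65 with Fads2 and 0.035 with Fads1. Fads1 and Fads2 had an r of 0.77. Elovl3 was most like Elovl1 among the 6 genes (0.81), both being highest in WT-Control with TMM scaling. With library totals Elovl1 in WT-Control overlapped the other groups. Among 9398 genes averaging 50 or more counts, those closest to Fads2 were Fasn, the fatty acid synthase (0.97), Rpia (0.97) and Ndufaf4 (0.97). Closest to Fads1 were 0610010F05Rik (0.96), Pmvk, a mevalonate pathway kinase (0.94), and Mrps30 (0.93). Phlda1 (0.99), Hmgb3 (0.98) and Gm14493 (0.97) were closest to Elovl2, and Il18 (0.96), Tmem230 (0.95) and Mcur1 (0.95) to Elovl5. Fkbp15 (0.99), Ccdc189 (0.98) and Get3 (0.98) were closest to Elovl3, and Mrpl19 (0.98), Zfp976 (0.97) and Pfdn1 (0.95) to Elovl1.

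Of 11 other desaturases and elongases, 7 were tested, and 2 of them rose with EtOH in WT, where 10.8% of all genes rose. Scd2, a stearoyl-CoA desaturase, rose from 1.3 and 1.3 CPM to 8.1 and 7.5 (log2 2.58 ± 0.43, adjusted p = 0.0046), and Degs1, the dihydroceramide desaturase, from 23.3 and 17.8 to 40.3 and 43.6 (1.03 ± 0.21, adjusted p = 0.00906). Averaged over genotypes, Scd1, the main hepatic stearoyl-CoA desaturase, fell by 0.70 ± 0.22 (adjusted p = 0.0384) and Fads3 by 1.29 ± 0.36 (adjusted p = 0.0254) on the log2 scale, and Scd2 and Degs1 rose, so 2 of 7 fell and 2 rose beside 13.8% and 14.1% of all genes. None of the 7 was called between genotypes or for the interaction in edgeR. An unadjusted p under 0.05 was found for 1 under EtOH (10.5% of all genes), 5 under control diet (7.31%), 4 averaged over the diets (7.94%) and 1 for the interaction (10.1%), and DESeq2 called Fads3 under EtOH and averaged over the diets. Fads3, the neighbour of Fads2, had 20.7 and 29.6 CPM in the WT-Control pair, 6.4 and 9.4 CPM in the WT-EtOH pair, and 108.2 and 42.7 CPM in the Elf4-/- Control pair, beside the Elf4-/- EtOH values above. Its genotype difference averaged over the diets was 1.96 ± 0.37 (adjusted p = 0.120 in edgeR and 2.31e-06 in DESeq2). Elovl6, which lengthens palmitate, differed between genotypes by 1.11 ± 0.32 under control diet (adjusted p = 0.408) and 0.19 ± 0.31 under EtOH (adjusted p = 0.885).

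Of 9 enzymes that complete each elongation cycle and supply its electrons, 3 rose with EtOH in WT and 2 fell. Beside them, 10.8% of all genes rose and 10.8% fell. Hacd1, a 3-hydroxyacyl-CoA dehydratase, rose by 1.41 ± 0.37, and Hsd17b12, the ketoacyl-CoA reductase, rose by 1.17 ± 0.25 on the log2 scale (adjusted p = 0.0238 and 0.0111). Hacd2, another dehydratase, fell by 0.84 ± 0.24 (adjusted p = 0.0365). In Elf4-/-, where 1.71% of all genes rose and 1.18% fell, the 1 call of the 9 was Cyb5b, a cytochrome b5 (0.92 ± 0.20, adjusted p = 0.0414). Among 12 tested ceramide synthases and very-long-chain partners, 5 rose and 1 fell with EtOH in WT, beside the same 10.8% each way. Abcd3, a peroxisomal fatty acyl-CoA transporter, rose from 167.6 and 187.7 to 407.5 and 655.6 CPM (log2 1.58 ± 0.28, adjusted p = 0.00574). Of 9 peroxisomal chain-shortening genes 4 rose in WT (10.8% of all genes), led by Ehhadh, the bifunctional enzyme, from 36.5 and 44.5 to 857.9 and 843.2 CPM (log2 4.39 ± 0.52, adjusted p = 0.00169). Ehhadh also rose in Elf4-/- (3.08 ± 0.49, adjusted p = 0.0183). Of 11 acyl-CoA synthetases and phospholipid remodelling genes, Acsl1 and Acsl5 rose in WT, by 1.60 ± 0.29 and 0.81 ± 0.20 on the log2 scale, beside 10.8% of all genes.

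Regulators of fatty acid synthesis and peroxisome proliferation were called 6 times among 15 genes with EtOH in WT, 1 higher and 5 lower, beside 21.6% of all genes. Srebf1 fell from 262.5 and 325.7 to 40.0 and 50.03 CPM (log2 -2.71 ± 0.57, adjusted p = 0.0109), and Ppargc1b, a coactivator of lipogenic factors, fell by 1.57 ± 0.36 (adjusted p = 0.0158). Pparg, which promotes lipid storage, rose by 2.11 ± 0.43 in WT and by 2.0 ± 0.40 in Elf4-/- (adjusted p = 0.00915 and 0.0319). In Elf4-/- Srebf1 changed by -1.23 ± 0.54 (adjusted p = 0.228).

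Elovl3 was also set beside lists for the sex bias and the daily rhythm for which it is known. With EtOH, 9 of 12 male-biased liver genes fell in WT (10.8% of all genes) and 7 of 12 in Elf4-/- (1.18%), with medians of -2.64 on the log2 scale in both. Mup7, a major urinary protein, fell by 7.27 in WT and 7.66 in Elf4-/-. Of 7 female-biased genes tested, 6 rose in WT (10.8% of all genes) and 4 in Elf4-/- (1.71%), among them Cyp2b9 (7.92 and 8.22). Among 14 clock genes tested, 4 fell and 2 rose in WT, beside 21.6% of all genes called there. Dbp stood at -3.13 ± 0.71 and Nr1d1 at -2.84 ± 0.37. In Elf4-/- edgeR called Nr1d1 alone (-1.90 ± 0.36), where 2.89% of all genes were called. DESeq2 called 7 of the 14 in Elf4-/- and 6 in WT, beside 5.64% and 20.1% of all genes. An unadjusted edgeR p under 0.05 was found for 13 in Elf4-/- and 8 in WT, beside 21.2% and 36.4%. Their median absolute log2 fold change with EtOH was 1.16 in Elf4-/- and 0.81 in WT. Under control diet neither Elovl3 nor any gene of these 3 lists passed between genotypes in edgeR, and DESeq2 called Elovl3 and none of the lists. At an unadjusted p under 0.05 were 0 of 12 male-biased, 0 of 7 female-biased and 7 of 14 clock genes, beside 7.31% of all genes, and the median absolute log2 fold change was 0.22, 0.54 and 0.74 in the lists, beside 0.25 over all genes. The labels give no hour of sampling. The part of sex-biased or clock genes in the level of Elovl3 was not tested.

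In bulk liver, fewer cells of a type and less RNA per cell cannot be told apart. The hepatocyte markers summed to 52484 to 72940 CPM in WT without and 31302 to 37530 CPM with EtOH. In Elf4-/- they summed to 64046 to 71996 CPM without and 41673 to 53036 CPM with EtOH, so each genotype had its lower sums under EtOH. Alb weighed most in them, with 31654 of the 52484 CPM in WT-Control replicate 1. In WT every marker of the list but Ttr was lower in both EtOH libraries. In Elf4-/- this held for Alb and Apoa1 only, and Ttr, Cps1, Serpina1a, Tat and Hnf4a overlapped between the diets. Kupffer cell markers (6 of 6 measured) summed to 151 to 199 CPM in WT without and 505 to 558 CPM with EtOH, and to 139 to 142 CPM in Elf4-/- without and 189 to 199 CPM with EtOH. Sinusoidal endothelium (6 of 6) summed to 46.0 to 78.9, 231 to 280, 114 to 121 and 117 to 191 CPM, and stellate cells (6 of 6) to 29.3 to 66.2, 230 to 299, 82.0 to 116 and 184 to 312 CPM, in the same order of groups. In WT every marker of the Kupffer, endothelial and stellate lists was higher in both EtOH libraries. In Elf4-/- Clec4f, Timd4, Adgre1, Stab2, Lyve1, Des, Pdgfrb, Reln and Col1a1 overlapped between the diets, and the other markers were higher with EtOH. Dcn weighed most in the stellate sums with EtOH, with 225 of the 312 CPM in Elf4-/- EtOH replicate 1. The fall of Elovl3 with EtOH in WT moved with these sums. Under control diet, where Elovl3 was lower in Elf4-/- than in WT, the hepatocyte sums of the genotypes overlapped. The Kupffer sums were lower, and the endothelial and stellate sums higher, in Elf4-/- there. The part of these sums in the level of Elovl3 was not tested. Of 8 fat cell markers, Adipoq, Plin1, Lep, Retn, Ucp1 and Cidea were absent from the counts. The 2 measured, Cidec and Fabp4, summed to 6.07 to 11.001 CPM in WT without and 28.2 to 41.9 CPM with EtOH. In Elf4-/- they summed to 11.8 to 16.4 CPM without and 23.9 to 50.2 CPM with EtOH. Fabp4 gave 36.7 of the 41.9 CPM in WT-EtOH replicate 2, so these sums describe 2 genes and do not measure fat cells. The part of fat cells in these results was not tested either.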

How the data were processed

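Total liver RNA of 8 libraries was sequenced in paired-end mode. Per the study's methods and processing notes, the authors aligned reads to mm10 with HISAT2, sorted them with SAMtools, counted reads per gene with HTSeq and tested them with DESeq2. Versions, annotation and strand setting were not given in the sources used here. The deposited table gives raw, unnormalized counts of reads for each gene symbol, with a column for each library.

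Lengths and coordinates came from GENCODE M21 (GRCm38), matched by symbol for 18774 of 19267 genes. Counts of all 8 libraries (6171051 to 9157362 a library) entered 1 edgeR 4.0.16 quasi-likelihood model under R 4.3.3 with 4 groups, no covariate, TMM scaling and filterByExpr, which kept 13993 genes. Residual degrees of freedom were 4 and the common biological coefficient of variation 22.7%. P-values are two-sided, with Benjamini-Hochberg adjustment over all genes and a threshold of 0.05. SE is the log2 fold change divided by the square root of F, and intervals are 95%. CPM and RPKM use TMM-scaled totals, and log2 CPM a prior count of 2. PCR copies were not separated, so counting error covers counting only. The fit was tested on simulated data with the same spread in all genes and groups and with changes in WT-EtOH alone. The wider spread of the Elf4-/- EtOH pair was not simulated.

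The 6 genes, the lists and the tests were chosen with earlier results of these data known. Of other lists, the desaturases and elongases and at most 3 called genes per list and comparison were named, and for each of the 6 genes the 3 closest in correlation. The other lipid genes given by Elf4-/- EtOH library were chosen after their values were seen. Alternatives were DESeq2 1.42.0, other scaling, other filters, a replicate block, the 4 compared libraries alone and leaving out each library. Of the list and marker genes, 26 were absent from the deposited counts, and a few other list genes did not pass the filter on low counts. Same-numbered libraries did not deviate together, so the numbers were not used as pairs.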

Additional observations from a re-analysis of the deposited data

How the results depend on the processing

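Elovl3 kept its decrease with EtOH in WT past the threshold under all 17 alternatives run (log2 -2.68 to -1.99), and none of the 6 genes lost a call. Calls were gained. In WT, 2 of 6 genes passed with library totals, 2 with only the 4 compared libraries, and 1 to 3 with a library left out. Leaving out 1 library gave 0 to 2 calls for EtOH in Elf4-/-, 0 to 1 for Elf4-/- against WT under EtOH, 0 to 3 under control diet and 0 to 2 averaged over diets, 1 to 4 for EtOH averaged over genotypes and 0 for the interaction; the gains came without Elf4-/- EtOH replicate 1 or 2. DESeq2 called 1 under EtOH, 3 under control diet, 2 averaged over diets, 2 for EtOH averaged over genotypes and 1 for the interaction. With no filter 1 passed under control diet and 2 averaged over diets, and 1 under control diet with only the 4 compared libraries. The cause of the gains was not tested. Library totals moved the median of all genes by 0.43 for EtOH in WT, -0.23 and 0.23 for the genotypes under EtOH and control diet, 0.20 for EtOH averaged over genotypes and -0.46 for the interaction, and turned Elovl1 (-0.0081) and Elovl3 (-0.086) under EtOH and the interactions of Fads2 (-0.38), Elovl2 (-0.27) and Elovl5 (-0.0091). Values that turned with a library left out were EtOH in Elf4-/- for Fads1 (-0.17 to 0.36), Fads2 (-1.14 to 0.11) and Elovl5 (-0.42 to 0.12), Elf4-/- against WT under EtOH for Elovl2 (-0.25 to 1.09) and Elovl3 (-0.092 to 0.40), and the interactions of Fads2 (-0.69 to 0.56) and Elovl2 (-0.65 to 0.69).

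With the replicate number as a block, the interaction of Fads2 turned to -0.030 and no call of the 6 genes changed. Deviations of same-numbered libraries correlated at -0.109 to 0.0594. With EtOH in WT the block left 1351 higher and 1288 lower calls of 1518 and 1507, and crossing the WT-Control numbers, chosen after seeing the data, left 1345 and 1352. With 2 libraries a group, intervals were wide. For Fads2 between genotypes they ran from 0.50 to 2.14 under control diet and from 0.56 to 2.21 under EtOH on the log2 scale. Averaged over the diets the interval was 0.77 to 1.94.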
